A study of Mus musculus with 12 samples.

Results

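Gemin6, Snrnp35, Dhx38, Prpf3 and Snrnp200 are 5 genes of RNA splicing among the 2416 genes in the deposited table for neural progenitors. Gemin6 belongs to the SMN complex, Snrnp35 to the minor spliceosome, and Dhx38, Prpf3 and Snrnp200 to the major spliceosome. They were taken by name from the 2 deposited expression tables, having been picked with their changes already known, so their values are a description and carry no test. All 12 libraries came from mouse cells of the genotype Prmt5 F/FER on a mixed C57BL/6 X 129S1/SvlmJ background, and the control cells carry this genotype too. Neural progenitor cells (NPC) were cortical neurospheres from E14.5 embryos, treated on day 4 of culture. Mouse embryonic fibroblasts (MEF), also of E14.5 embryos, were primary cells at passage 1 grown to confluence. Each cell type received either 50 nM 4-hydroxytamoxifen (4-OHT) for 24 h, which induces the loss of Prmt5, or the same volume of ethanol (EtOH), with 3 libraries in each of the 4 groups. The labels name neither the promoter of the inducible element nor the embryos behind each library, and no group received 4-OHT without the conditional allele, so the effects of 4-OHT and of Prmt5 loss cannot be told apart.

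Introns are removed by the spliceosome, which is built from small nuclear RNAs bound to proteins (snRNPs). PRMT5 methylates arginines of Sm proteins, and the SMN complex then loads these proteins as a ring onto each small nuclear RNA. The major spliceosome uses the U1, U2, U4/U6 and U5 snRNPs, and the minor spliceosome, which removes a rare class of introns, uses U11, U12 and U4atac/U6atac with the same U5. Gemin6 is a small SMN complex subunit that pairs with Gemin7. Snrnp35 is a U11 protein related to the U1 protein Snrnp70. Prpf3 binds the U4/U6 pair in a complex with Prpf4 and Ppih, Snrnp200 is the helicase that unwinds it, and Dhx38 is the helicase that acts between the catalytic steps. Prpf3 and Snrnp200 act on U4atac/U6atac as well, so the label of major spliceosome is not exclusive for them.

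Promoter sequences were at hand in RefSeq (GRCm38.p6) for 4 of the 5 genes, and are shown because 2 of these genes fell and 2 rose. Each is the 250 bases before the annotated start, 5′ to 3′, for Gemin6 at chr17:80224201-80224450 on the + strand, Snrnp35 at chr5:124482905-124483154 on the + strand, Prpf3 at chr3:95855886-95856135 on the - strand (the more upstream of 2 annotated windows) and Snrnp200 at chr2:127208136-127208385 on the + strand. Capitals mark any of the motifs TGACGTCA (CRE), CACGTG (E-box), CCGGAAG (ETS), TTTGAA (CHR) and CCAAT, on either strand, a set chosen after the sequences were read.
Gemin6: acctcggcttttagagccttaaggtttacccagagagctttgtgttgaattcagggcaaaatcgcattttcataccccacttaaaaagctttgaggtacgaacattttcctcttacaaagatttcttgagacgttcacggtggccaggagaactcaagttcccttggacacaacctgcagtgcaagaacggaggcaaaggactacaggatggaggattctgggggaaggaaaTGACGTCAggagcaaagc
Snrnp35: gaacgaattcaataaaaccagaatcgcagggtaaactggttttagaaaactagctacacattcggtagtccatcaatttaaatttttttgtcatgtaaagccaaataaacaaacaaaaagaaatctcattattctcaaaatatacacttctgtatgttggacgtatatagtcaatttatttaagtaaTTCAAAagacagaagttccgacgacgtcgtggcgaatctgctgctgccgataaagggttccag
Prpf3: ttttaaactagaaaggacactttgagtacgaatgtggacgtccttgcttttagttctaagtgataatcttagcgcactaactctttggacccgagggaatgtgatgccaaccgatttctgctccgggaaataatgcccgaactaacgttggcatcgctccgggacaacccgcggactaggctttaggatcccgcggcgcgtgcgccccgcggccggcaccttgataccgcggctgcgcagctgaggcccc
Snrnp200: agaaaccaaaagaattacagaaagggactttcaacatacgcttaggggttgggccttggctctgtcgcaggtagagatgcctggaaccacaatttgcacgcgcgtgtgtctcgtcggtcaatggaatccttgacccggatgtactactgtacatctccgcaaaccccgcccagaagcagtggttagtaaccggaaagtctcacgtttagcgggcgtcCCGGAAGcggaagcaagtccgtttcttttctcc

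The pair that fell held different motifs. Gemin6 has a CRE whose first base lies 18 bases before the start, and Snrnp35 has a CHR on the opposite strand 63 bases before the start. Snrnp200, of the pair that rose, has an ETS motif 33 bases before the start, and the Prpf3 window holds none of these letter strings. Among 32536 promoter windows of the same length, 1.56% hold the CRE, 15.8% the CHR, 6.95% the ETS motif, 6.04% the E-box and 33.8% CCAAT. The motifs do not overlap in these windows. No motif was shared by both genes of either pair. The 4 windows differed in base composition, with 34.8% G and C in Snrnp35, 46.8% in Gemin6, 52.4% in Snrnp200 and 55.6% in Prpf3, beside a median of 52.4% over all windows. Prpf3 and Snrnp200 hold 23 and 17 CG pairs, against 10 in Snrnp35 and 7 in Gemin6 and a median of 6. The genes were picked with their changes known, Dhx38 has no window here, and Prpf3 has another window that was not measured. Nothing is therefore read from the contrast between the pairs, and it was not tested.

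In NPC, 3 of the 5 genes were lower and 2 higher with 4-OHT. Over all genes listed in NPC 43.4% were lower and 56.6% higher, and since the members were picked from this comparison nothing is read from their split. The tables list only genes with a deposited p under 0.05 and a change of more than 1.5-fold. They give RPKM, the reads scaled to transcript length and sequencing depth, as 1 value for the 3 libraries of an arm, so no spread between libraries can be given for any gene level below. In bulk RNA, fewer cells of a type and less RNA per cell cannot be told apart.

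Gemin6 fell the most of the 5. The authors' deposited table gives it 16.5 RPKM with EtOH and 7.51 RPKM with 4-OHT, which leaves 45.4% of the control level (log2 fold change -1.14, Cuffdiff p = 4.01e-10). It is 111th by size of change among the 1049 lower genes, and 35th among the 707 of them that reach 5 RPKM in either arm. Of the 9 genes in the SMN complex list, the other 8 (Smn1, Gemin2, Ddx20, Gemin4, Gemin5, Gemin7, Gemin8 and Strap) are not listed. A gene that is not listed was untested, had a higher p or changed less, and the table does not say which.

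Snrnp35 and Snrnp25, a further U11 protein, were both lower. The authors' deposited table gives Snrnp35 15.6 RPKM with EtOH and 8.73 RPKM with 4-OHT, so that 56.1% remained (log2 fold change -0.83, Cuffdiff p = 3.09e-06). In the authors' deposited table Snrnp25 had a higher level, 27.9 RPKM with EtOH against 18.5 RPKM with 4-OHT, and a smaller log2 fold change of -0.60. These are the 2 listed genes among 13 of the minor spliceosome list. The U11/U12 proteins Rnpc3, Snrnp48, Pdcd7 and Zmat5 and the 3′ splice site factor Zrsr2 are among the 11 not listed.

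Dhx38, the mouse Prp16, fell less than Gemin6 and Snrnp35. In the authors' deposited table it stood at 17.3 RPKM with EtOH and 10.4 RPKM with 4-OHT, with 60.3% remaining (log2 fold change -0.73, Cuffdiff p = 1.15e-07). By the authors' deposited table Dhx35, a DEAH-box protein found in catalytic spliceosomes, went the other way, being at 11.0 RPKM with EtOH against 17.0 RPKM with 4-OHT. They are the 2 listed of 12 genes for the catalytic steps and release, among which the helicases Dhx8 and Dhx16 are not listed.

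Prpf3 and Snrnp200 were the members that rose, by similar factors. For Prpf3 the authors' deposited table gives 17.6 RPKM with EtOH and 27.3 RPKM with 4-OHT, a 1.55-fold rise (log2 fold change 0.63, Cuffdiff p = 4.08e-06). Snrnp200, the most abundant of the 5 per length in both arms, had 43.3 RPKM with EtOH against 69.0 RPKM with 4-OHT by the authors' deposited table, a 1.59-fold rise (log2 fold change 0.67, Cuffdiff p = 1.01e-05). Both lie close to the 1.5-fold limit of the list, ranking 403rd and 351st by size of change among the 461 higher genes with at least 5 RPKM in an arm. Some lower genes of the splicing lists lie as close, among them Snrnp25 with a 1.51-fold fall.

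Ppih and Prpf31, the other 2 listed genes of the U4/U6.U5 tri-snRNP, fell while Prpf3 and Snrnp200 rose. Ppih, the cyclophilin that binds the same U4/U6 complex as Prpf3, had 6.49 RPKM with EtOH and 3.76 RPKM with 4-OHT, as the authors' deposited table gives them. Its Cuffdiff p was 0.00709, and the upper limit on its adjusted p, explained below, was 0.194. Prpf31, a U4 protein that bridges U4/U6 to U5, stood in the authors' deposited table at 27.8 RPKM with EtOH and 18.2 RPKM with 4-OHT. The level of Prpf3 was therefore 2.71 times that of Ppih with EtOH and 7.26 times with 4-OHT, and 0.632 and 1.5 times that of Prpf31. Every listed gene changed by more than 1.5-fold, so a ratio of a gene that rose to one that fell had to shift. These ratios are a description only. The other 18 of 22 tri-snRNP genes are not listed, among them Prpf4, Prpf6, Prpf8 and Eftud2.

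**Figure D1:**
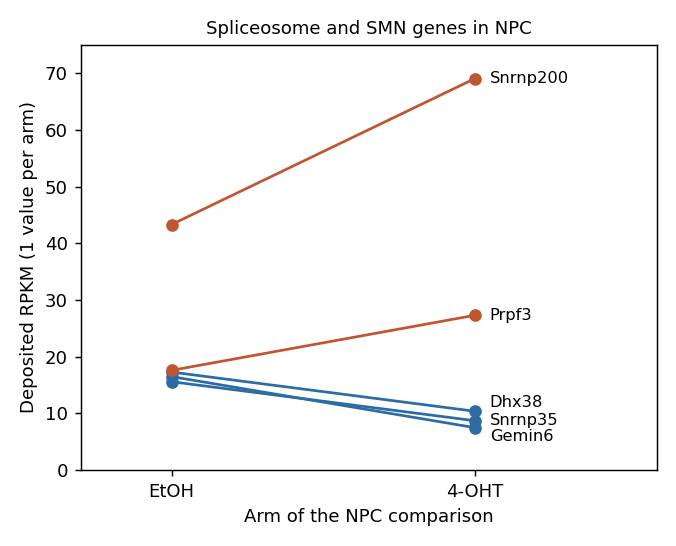
Deposited RPKM of the 5 genes in NPC (vertical axis, linear from 0) in the EtOH and 4-OHT arms, 1 value per arm, with genes that fell in blue and genes that rose in orange. Without Snrnp200, the genes start between 15.6 and 17.6 RPKM and end between 7.51 and 27.3 RPKM, a widening that follows from the choice of genes with known changes.

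With EtOH, all but Snrnp200 lay within a narrow range of levels. In the authors' deposited table the highest of these 4 was 1.13 times the lowest with EtOH and 3.63 times the lowest with 4-OHT. Over all 5 genes the factors were 2.78 and 9.18. The genes were picked with rises and falls already known, so this widening follows from the choice. The order with EtOH was Snrnp200, Prpf3, Dhx38, Gemin6 and Snrnp35. With 4-OHT it was the same except that Gemin6 dropped below Snrnp35. Without a spread over libraries, whether neighbours in these orders differ cannot be said. The Cuffdiff p-values above are those that helped to place the genes in the table, and are given only as deposited.

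In MEF none of the 5 genes is listed, and of the 143 genes of the 11 splicing lists only Prmt5 is. The authors' deposited table for MEF holds 111 genes in all, 0.470% of protein-coding names for the 103 that match one, and 49.5% of the 111 were lower. Prmt5 itself fell in both cell types, and the authors' deposited tables leave it at 4.92 RPKM in NPC and 3.76 RPKM in MEF with 4-OHT. The MEF levels of the 5 genes, and whether their response differs between the cell types, are therefore unknown here.

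Over the 11 lists, 17 of 143 genes were listed in NPC, 13 lower and 4 higher. These 17 include the 5 described above and Prmt5, and the lists were drawn up with these results known, so the count supports no direction. The share listed was 11.9%, near the 9.71% of protein-coding names, and the latter is a lower limit because names that were never tested count in it. The lower share of 76.5% stands beside 43.4% of all listed genes and 60.5% of those with at least 5 RPKM in an arm, a level that all 17 reach. The median log2 fold change was -0.67 for the lower and 0.65 for the higher list genes, against -0.76 and 0.81 for all listed genes with at least 5 RPKM in an arm.

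The genes shared by both spliceosomes held 5 of the lower genes. LSm proteins form the ring on U6 and U6atac, and 4 of 7 were listed, all lower. Of protein-coding names 9.71% were listed, and of listed genes with at least 5 RPKM in an arm 60.5% were lower. The 4 falls, between 1.5-fold and 1.59-fold, lie close to the limit of the list. This list was drawn up with these results known, so the count supports no enrichment. The authors' deposited table has log2 fold changes of -0.63 for Lsm7, -0.63 for Lsm5 and -0.59 for Lsm2. The gene listed as Naa38 had 78.1 RPKM with EtOH against 49.2 RPKM with 4-OHT by the authors' deposited table. Naa38 is an older symbol of Lsm8, the subunit that keeps the ring nuclear, but it now names another gene, so its identity is uncertain. Sm proteins form the rings of the other snRNPs, and some of them are substrates of PRMT5. Of the 8 Sm genes Snrpf alone was listed, for which the authors' deposited table has 34.4 RPKM with EtOH and 22.6 RPKM with 4-OHT. Counting all 55341 GENCODE gene names as tested limits the Cuffdiff p after Benjamini-Hochberg adjustment from above, and this limit was under 0.05 for 1782 genes in NPC, 3.22% of all names. The limit was above 0.05 for Lsm5 (0.143) and, in the tri-snRNP list, for Ppih (0.194).

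The remaining lists held few listed genes. Isy1, a Prp19-related factor, was the 1 of 23 in its list and fell to 55.1% of its control level, with 23.5 RPKM against 12.9 RPKM by the authors' deposited table. Smndc1, a U2-associated protein with a Tudor domain like that of SMN, was the 1 of 21 among U2 and SF3 genes and rose, with 20.4 RPKM against 33.3 RPKM by the authors' deposited table. None of the 10 U1 genes, none of the 12 genes of snRNP biogenesis and transport, and only Prmt5 of the 6 methylosome genes were listed. Contrasted by class, both listed minor spliceosome genes and the 1 listed SMN complex gene were lower, as were all 5 listed of the 15 Sm and LSm genes, which serve both spliceosomes. The 88 genes of the other spliceosome lists, some of which also serve both, had 4 lower and 4 higher. Of all listed genes with at least 5 RPKM in an arm, 60.5% were lower. With so few listed genes, and lists drawn up with these results known, the counts support no difference between classes, and none was tested.

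**Figure D2:**
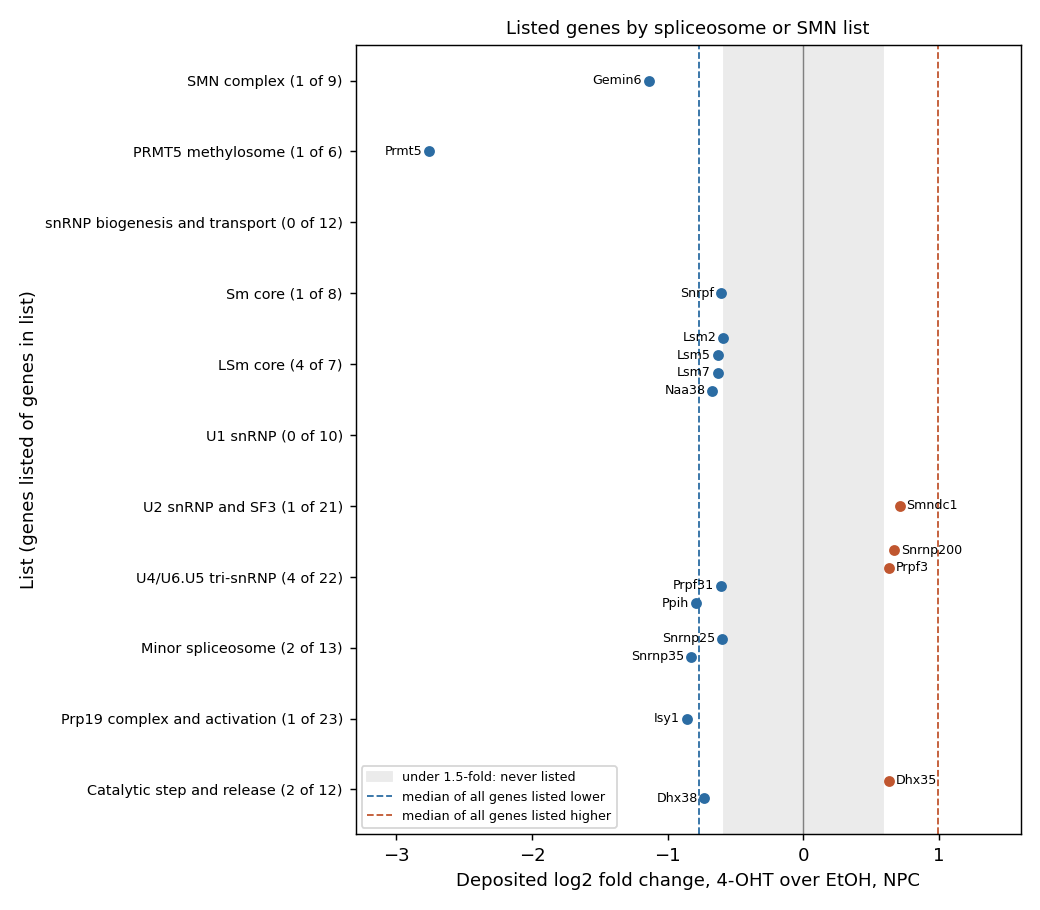
Deposited log2 fold change of 4-OHT over EtOH in NPC (horizontal axis) for the 17 listed genes, in rows by list, with the number listed of the number in the list. Grey covers changes under 1.5-fold, which are never listed, and dashed lines mark the medians of all genes listed lower (-0.77) and higher (0.99).

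The lower list genes had mostly short transcripts. The longest protein-coding mRNA in GENCODE M21 is 1134 bases for Gemin6 and 1181 bases for Snrnp35, which have 3 and 2 exons, while it is 4463 bases for Dhx38, 2933 for Prpf3 and 6745 for Snrnp200. Of the 13 lower list genes 9 are under 1500 bases, with a median of 1134. Of the 4 higher ones none is. The 9 include Naa38, counted at the 807 bases of Lsm8. Among list genes that are not listed and have a length, 22.4% are under 1500 bases, with a median of 2539. The same share is 14.1% of all genes listed as lower and 8.60% of all listed as higher. Among those with at least 5 RPKM in an arm it is 15.8% and 11.9%. The lists were drawn up with these results known, so the counts support no link between length and direction, and none was tested. The LSm and Sm genes are short as a family, so the genes counted are not independent of one another. No exon base of the 5 genes overlaps another gene in this annotation.

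**Figure D3:**
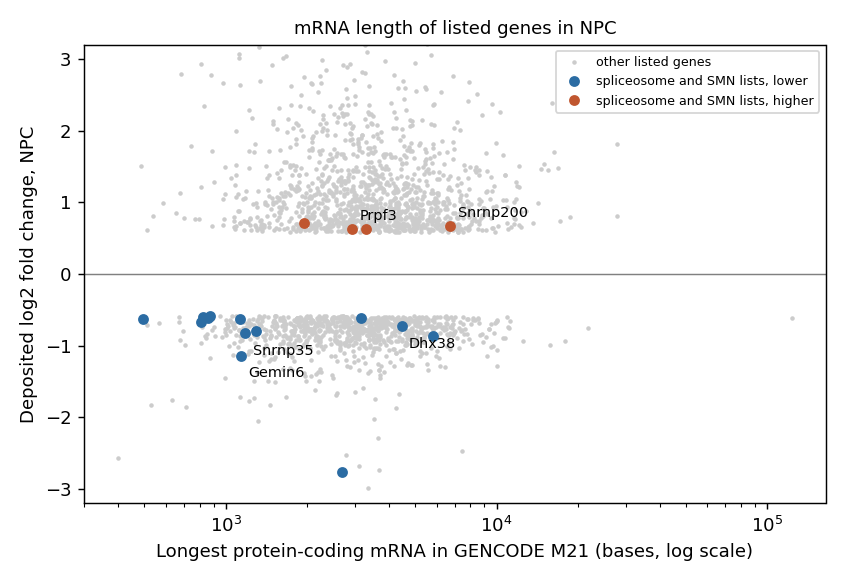
Deposited log2 fold change in NPC against the longest protein-coding mRNA (bases, log scale) for all listed genes with a length (grey) and for the splicing lists (blue lower, orange higher), with 15 genes beyond 3.2 on the vertical axis not drawn. Gemin6 and Snrnp35 sit at the short end, at 1134 and 1181 bases, and Snrnp200 at 6745 bases.

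Listed genes with the most similar pair of levels were sought over the 2 arm values, which is a thin basis. By Euclidean distance on log2 RPKM in the authors' deposited table, the nearest gene was Nrm for Gemin6 (0.052), Nedd1 for Snrnp35 (0.025), Ahsa2 for Dhx38 (0.014), Sesn3 for Prpf3 (0.015) and Mt2 for Snrnp200 (0.057). Some markers of maturing neural cells moved in the same comparison: the authors' deposited table has Tubb3, a neuron tubulin and the 1 listed of 5 neuron markers, at 4.81 RPKM with EtOH against 9.59 RPKM with 4-OHT, and 4 of 5 glial markers (Gfap, Aqp4, Mag and Mbp) at sums of 3.75 against 14.8 RPKM. Most of these sums is Mbp, with 2.35 against 10.4 RPKM by the authors' deposited table, while Gfap and Mag reached only 1.1 and 0.919 RPKM with 4-OHT. Hes5 was the 1 listed of 10 progenitor markers, with 15.8 RPKM against 4.77 RPKM by the authors' deposited table. Postn of 8 fibroblast markers, Flt1 and Tek of 4 endothelial markers, and Cd14 and H2-Ab1 of 4 immune markers were listed as higher, and the authors' deposited table puts each at no more than 1.12 RPKM. In MEF none of these markers is listed, and the labelled cell types cannot be checked on markers whose levels are not given. The part of these markers in the changes of the splicing genes was not tested.

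Splicing events are a readout that did not serve to choose the 5 genes. None of the 5 genes has a listed event among the 255 of NPC or the 71 of MEF. These tables list events in at least 2 of the 3 pairs of libraries, each pair with a deposited p under 0.05 and a difference of at least 0.201 in NPC, so the listing itself favours arms that do not overlap. Here the inclusion level is the deposited estimate of the fraction of transcripts that hold the alternative segment. It is not the plain share of inclusion reads among the reads of an event. In NPC 5 of the 143 list genes have events, Prmt5 and 4 of the 10 U1 genes, beside 0.926% of protein-coding names, again a lower limit. The lists were drawn up with earlier results of these data known, so these counts support no enrichment. In MEF Prmt5 alone has one, beside 0.228% of protein-coding names. The U1 genes with events are thus absent from the expression list, and Prmt5 is the single list gene in both, 5.88% of the 17 and 20.0% of the 5. Over all genes, 31 are in both, 1.28% of the genes in the expression table and 14.0% of those with events. Prmt5 is also the gene that 4-OHT was used to remove. A 164-base cassette exon of Prmt5 went from a mean level of 0.882 to 0.007 in NPC and from 1.0 to 0.0 in MEF with 4-OHT. A 305-base retained intron of Prmt5 went from a mean level of 0.0403 to 0.431 in NPC with 4-OHT. Whether these changes reflect the deletion itself or a change of splicing was not tested.

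Luc7l, the mouse relative of a yeast U1 protein, had a higher inclusion level with 4-OHT for a 1297-base exon extension at 26390037 to 26391333 of chromosome 17 (mm9). Its inclusion levels were 0.434, 0.311 and 0.512 with EtOH and 0.850, 0.804 and 0.817 with 4-OHT, with no overlap between the arms. The means were 0.419 ± 0.101 (SD, n = 3) and 0.824 ± 0.0237 (SD, n = 3), and a two-sided exact permutation test gave p = 0.1, the smallest that 3 against 3 libraries allow. Since events were listed only for differences between the arms in each listed pair, this p adds no support of its own. A 71-base cassette exon of Luc7l at 26390919 to 26390989, inside that extension and so not an independent event, had levels of 0.236 and 0.303 with EtOH and 0.819 and 0.823 with 4-OHT in the 2 listed pairs. In Luc7l3 a 79-base cassette exon (chromosome 11, 94153708 to 94153786, mm9) had levels of 0.499 and 0.652 with EtOH and 1.00 and 0.945 with 4-OHT in the 2 listed pairs. Neither exon length is a multiple of the codon length.

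Prpf40b, a U1-associated WW domain protein, had a higher inclusion level with 4-OHT for a 210-base retained intron at 99145412 to 99145621 of chromosome 15 (mm9). Its inclusion levels were 0.105, 0.141 and 0.155 with EtOH and 0.389, 0.349 and 0.466 with 4-OHT, again without overlap. The means were 0.134 ± 0.0258 (SD, n = 3) and 0.401 ± 0.0595 (SD, n = 3), with p = 0.1 in the two-sided exact permutation test. Benjamini-Hochberg adjustment over the 59 events listed in all 3 NPC pairs left an adjusted p of 0.1 for it and for the Luc7l extension. That value is reached only if all 59 events have p = 0.1 in the permutation test. Neither the p nor the adjusted p therefore singles out these events. Snrpc, the U1-C protein that helps U1 bind the 5′ splice site, had a lower level with 4-OHT for a 1763-base retained intron (chromosome 17, 27977452 to 27979214, mm9). Its level was 1.00 in both listed EtOH libraries, from 60 inclusion reads (33 and 27) and 0 exclusion reads. With 4-OHT it was 0.026 and 0.015, from 98 inclusion and 94 exclusion reads. Inclusion reads were thus not fewer with 4-OHT, and the lower level came with exclusion reads that were absent with EtOH. These reads are not corrected for library depth. Read counts here have no molecular identifiers, and the third pair of the Snrpc, Luc7l3 and Luc7l cassette events is not given.

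**Figure D4:**
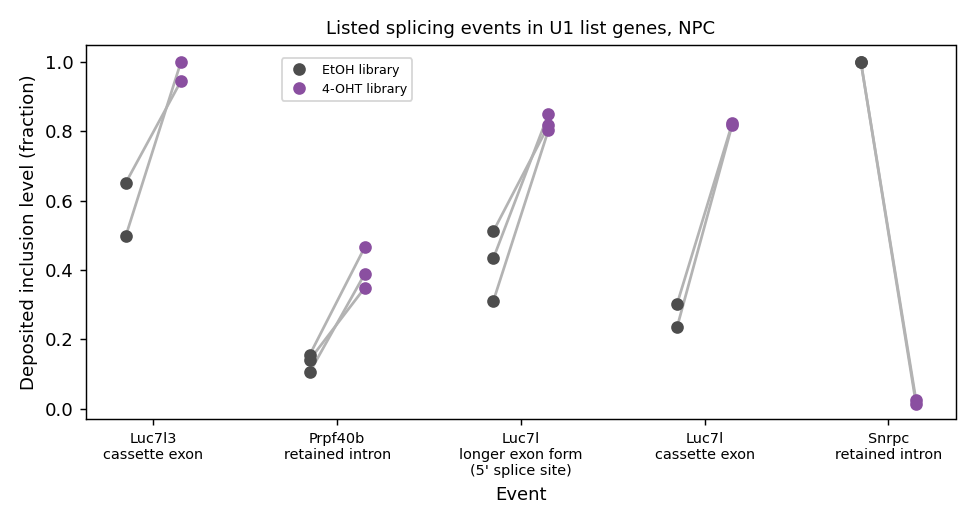
Deposited inclusion level (fraction, vertical axis) of the 5 listed events in U1 list genes in NPC, with 1 point per library and lines joining the libraries of a pair code. The 4-OHT libraries lie above the EtOH libraries in the 4 events of Luc7l3, Prpf40b and Luc7l, and at no more than 0.026 against 1.00 in Snrpc.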

How the data were processed

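RNA of 12 libraries was sequenced, and the submitters' processing notes name CASAVA 1.8, TopHat2 2.03, Bowtie2 2.0.0.6, Cuffdiff 2.02 and the mm9 build. The deposited expression tables hold, per the file headers, RPKM for each arm, the log2 fold change and an unadjusted p-value. The deposited splicing tables hold, per the file headers, the read count of each form in each library, the inclusion level as a fraction and a p-value for each pair. Library depth is not given in the sources used here. The log2 values were recomputed from the RPKM values and differed by at most 1e-05. Members and lists were chosen with earlier results of these data known. Named genes are the 5 members, all list genes listed in a table or with an event, the nearest gene by level and the listed markers. Inclusion levels were compared by exact permutation tests (SciPy 1.17.1). Labels do not say whether replicates were separate cultures, so the permutation and sign-flip p-values refer only to these libraries. The deposited splicing p-values compare the arms within a pair and hold no spread between replicates. Pair codes match no label. As a check, deviations from the arm means were correlated within each code over 57 NPC events, giving 0.177, 0.160 and 0.123 against at most -0.044, 0.100 and 0.100 with another code, and over 8 MEF events, giving 0.232, 0.665 and 0.252 against at most 0.125, 0.125 and 0.067. These events were listed for a difference within pairs. Alternatives tried were pseudocounts, limits on level, p and change, a read minimum, left-out pairs and a block for the pair. mRNA lengths came from GENCODE M21, matched by symbol for 142 of 143 list genes.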

Additional observations from a re-analysis of the deposited data

How the results depend on the processing

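The directions of the 5 genes and their change beyond 1.5-fold held with pseudocounts of 1 and 0.1, where Gemin6 had log2 values of -1.04 and -1.13 and Prpf3, the nearest to the limit, 0.60 and 0.63. The counts of 13 lower and 4 higher list genes fell to 2 and 0 with changes below 1 on the log2 scale left out, the 2 being Gemin6 and Prmt5, since few of these genes changed by that much. With the bound of the adjusted Cuffdiff p under 0.05 the counts were 11 and 4. Without the methylosome list, or without Naa38 (an alternative chosen after seeing the data), 12 were lower. A minimum of 20 reads in every library left 6 of the 7 NPC events in list genes. The event left out was the Prmt5 cassette exon, with as few as 13 reads in a 4-OHT library. With 1 pair left out, the difference in inclusion level (4-OHT minus EtOH) ranged from 0.360 to 0.455 for the Luc7l extension and from 0.246 to 0.298 for Prpf40b, from 0.520 to 0.583 for the Luc7l cassette exon, from 0.293 to 0.501 for Luc7l3 and from -0.985 to -0.974 for Snrpc. With the pair code as a replicate block, the differences of 0.405 for the Luc7l extension and 0.268 for Prpf40b had p = 0.25 in an exact sign-flip test over 3 pairs, the smallest it can give. Both events were listed for a difference in every pair, so this p is no separate support. No left-out library could be tried for gene levels, which have 1 value per arm.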
